A study of Mus musculus with 6 samples.

Results

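In the islet count table of P07Rik mutant and wild-type mice, 233 of 15286 genes were protein-coding genes that share exon positions with another protein-coding gene on the opposite DNA strand and had a mean of at least 150 raw counts over the 6 libraries. They are called members here, and the coding gene opposite with the longest exon overlap is called the partner. Members were chosen by their counts, so their levels are given as a description and no test was made of them. Gene models came from GENCODE vM21 on genome build GRCm38 (mm10). In that annotation 2384 coding genes of the table had an exon overlap of this kind. With 11 symbols left out by name, 4 of which also had such an overlap and a mean of 150 counts or more, 2141 overlapping genes had a mean under 150 counts.

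Islets came from male mice of 12 weeks on a C57BL/6N background that had fasted overnight, and rested for 2 h at 3 mM glucose before RNA was taken. The flox/flox mice, written P0Rik7flox/flox in the sample labels, carry on both alleles of the long non-coding RNA gene A830019P07Rik (P07Rik) a gene-trap cassette meant to end its transcription early, and the WT mice were their littermates. There were 3 WT libraries (WT2772, WT2777 and WT2931) and 3 flox/flox libraries (KO2775, KO2776 and KO2938), with 1 library per mouse. WT2931 and KO2938 belong to litter 2 and the other 4 to litter 1. The total count was 698588, 793596 and 690726 in the WT libraries in that order, and 646141, 611181 and 800255 in the flox/flox libraries. Counts of the targeted gene were not analysed here, so genotype was taken from the labels and was not checked in the counts.

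Genes on opposite strands can share positions in several ways. In a tail-to-tail pair both genes are transcribed towards each other and their 3′ ends overlap, in a head-to-head pair the 5′ ends overlap, and in a nested pair one gene lies within the span of the other. Both RNAs hold the shared stretch as complements of each other, so a read from it is assigned to the right gene only if the direction of the RNA was kept in the library and is read the same way during counting.

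The libraries were strand-specific, and HTSeq was run with its default setting, under which a read counts for a gene when it aligns in that gene's own direction. Ins2, an insulin gene, was listed at 157, 205 and 158 counts in the WT libraries and 165, 128 and 96 in the flox/flox libraries. Gcg, which encodes glucagon, was listed at 43, 114 and 34 counts in WT and 43, 61 and 23 in flox/flox libraries. Actb, which encodes the cytoskeletal protein beta-actin, was listed at 32, 40 and 26 counts in WT and 20, 24 and 14 in flox/flox libraries. Counts were thus listed under these genes in every library, fewer than under many members, and cannot be read as the level of their transcripts. In bulk islets, fewer cells of a type and less RNA per cell cannot be told apart. Ins1 had a mean of 61.8 counts, Gapdh 44 and Hprt 1. The reference gene Tbp, itself a member, had a mean of 239.8.

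Counts followed the presence of a coding gene on the other strand. Of the 2384 coding genes with an exon of another coding gene opposite, 9.94% had a mean of 150 counts or more, and their median was 19.6 counts. Of 1521 coding genes with only a non-coding gene opposite the share was 0.920% and the median 4.33 counts. Of 6456 coding genes with no exon opposite the share was 0.356% and the median 3.17 counts. The counts do not tell from which strand a read came. Whether those listed under a gene hold reads of the opposite strand was not tested, so member and partner RNA cannot be told apart in them. Values below are therefore given as counts listed under a gene, and a change between groups is a change of the listed counts.

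Members held 13.7% of all counts. Their share was 15.2%, 13.6% and 15.0% in WT2772, WT2777 and WT2931, and 15.9%, 13.9% and 9.53% in KO2775, KO2776 and KO2938. The low share in KO2938 stood beside a high share of the gene AY036118, which took 41.0% of that library and 13.6% to 22.1% of the others. With AY036118 taken out of the totals, members held 17.8%, 17.0% and 17.4% of the WT libraries and 18.6%, 17.8% and 16.2% of the flox/flox libraries.

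The mean count per member ran from 150.3 to 11744.5, with quartiles of 190.2, 262.3 and 402.8. Every member had at least 10 counts in each of the 6 libraries, and all 233 passed the low-count filter of the tests. Just inside the threshold were Cox20 (opposite Hnrnpu) with a mean of 150.3 counts, Kif20a (opposite Cdc23) with 151.2 and Plscr3 (opposite Tnk1) with 151.7. Just outside it were Smim27 (opposite Ndufb6) with 148.8, and Mms19 (opposite Zdhhc16) and Mettl3 (opposite Tox4) with 148.5 each.

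Members lay on all 19 autosomes and on chromosome X, with 25 on chromosome 11 and 2 on X, and were spread over both strands, with 116 on the plus and 117 on the minus strand. Tail-to-tail pairs made up 193 members, 82.8%, against 58.0% of the 2141 overlapping genes below the threshold. Head-to-head pairs made up 19 members, 8.15% against 32.1%. A further 12 members lay inside the span of their partner and 9 spanned it. The median overlap of members was 809 bp, and that of the genes below the threshold was 245 bp. Of the 248 overlapping genes with fewer than 50 bp of shared exon 2.02% were members, and of the 114 with 2000 bp or more 32.5% were members. Longer overlaps thus went with more listed counts, as a description across genes, which are not independent replicates.

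The overlap reached into the coding sequence of the partner for 148 members, 63.5%, and into that of the member itself for 97, 41.6%. Among the genes below the threshold these shares were 35.0% and 36.7%. More than 1 coding partner was annotated for 39 members, 31 also had a non-coding gene opposite, and 22 shared exon positions with another gene on their own strand, for which the counting could split or drop reads. The longest overlap, 4652 bp, joined Pstk, a kinase of selenocysteine tRNA synthesis, and Ikzf5. The shortest was 1 bp, between Sptb, which encodes a spectrin, and Plekhg3.

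Counted once per member, 67 partners had a mean under 10 counts, 130 had 10 to under 150, 30 had 150 or more and 6 were not analysed here. Over the 227 pairs with both genes in the table the median partner had a mean of 27.8 counts, beside 19.6 for all overlapping coding genes. Members had to reach 150 counts and partners did not, so that most members lie above their partner follows in large part from this rule.

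**Figure D1:**
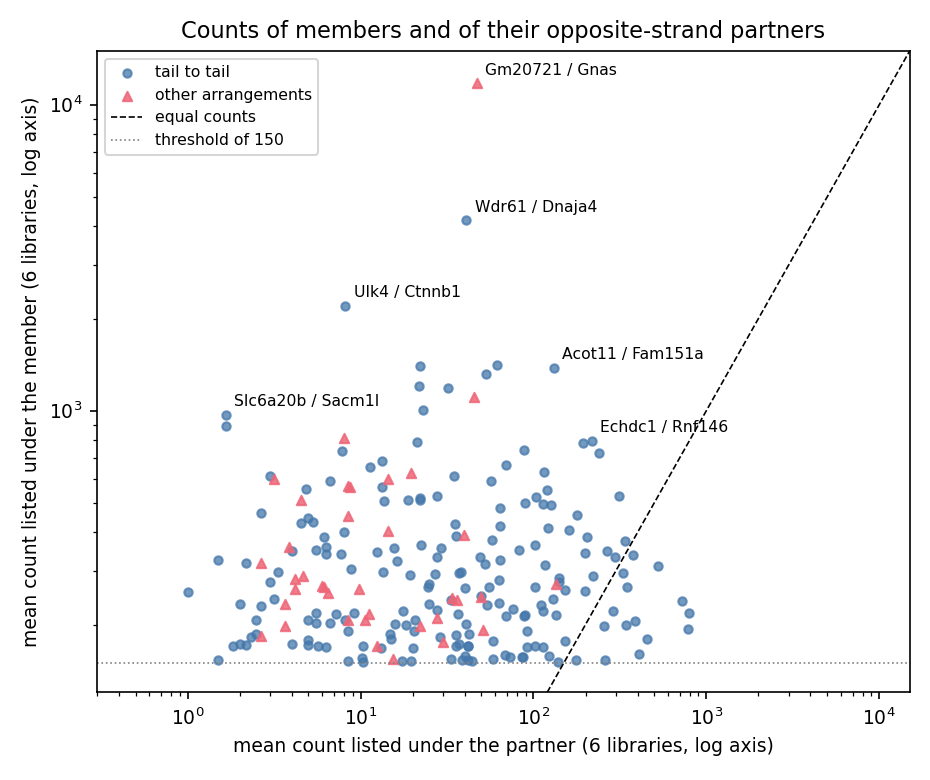
Mean count over the 6 libraries listed under each member (vertical axis, log scale) against that of its partner (horizontal axis, log scale) for the 227 pairs with both genes in the table; circles are tail-to-tail pairs, triangles other arrangements, the dotted line the threshold of 150 counts and the dashed line equal counts. Members lie above the dotted line by choice, and Gm20721, Wdr61 and Ulk4 stand highest.

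The highest member by far was Gm20721 (ENSMUSG00000090625), a predicted coding gene on the minus strand at chr2:174330319-174346712, of whose 1484 exon bases 1469 lie opposite Gnas, the imprinted gene of the stimulatory G protein alpha subunit. It was listed at 13670, 13533 and 11341 counts in WT and 12949, 10706 and 8268 in flox/flox libraries, while Gnas itself was listed at 52, 65 and 55 and at 40, 32 and 38 counts. Gm20721 was thus high in every library, and the raw counts of the genotypes overlapped. Per kb of exon the means were 7914 counts for Gm20721 and 4.20 for Gnas.

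Wdr61 (ENSMUSG00000061559), a subunit of the PAF and SKI complexes of transcription and RNA decay, overlaps the co-chaperone gene Dnaja4 tail to tail over 1581 bp. In CPM, the counts scaled for library size with TMM factors, Wdr61 was at 6475, 6079 and 5950 in WT and 6955, 6738 and 4853 in flox/flox libraries. Dnaja4 had a mean of 40.8 raw counts. Both litter 2 libraries were the lowest for Wdr61, KO2938 clearly so, and the genotypes overlapped. Neither Gm20721, with a log2 fold change between litters of -0.32 (edgeR adjusted p = 0.181), nor Wdr61, with -0.28 (0.208), was called, though both litter 2 libraries were the lowest in CPM.

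Ulk4 (ENSMUSG00000040936), a kinase-like protein, overlaps 759 bp of Ctnnb1, the gene of beta-catenin, which acts in cell adhesion and Wnt signalling. It was listed at 2551, 2390 and 2250 counts in WT and 2413, 1937 and 1692 in flox/flox libraries. Ctnnb1 had a mean of 8.17 counts. WT and flox/flox counts overlapped for Ulk4, with the low end again in KO2938.

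The next members by mean count were genes of varied function. Map3k12, a kinase of the neuronal stress response, lay opposite the RNA-binding protein gene Pcbp2 and had a mean of 1414 counts. Gins2, a subunit of the replicative helicase, lay opposite Gse1 and had 1397. Acot11, an acyl-CoA thioesterase, lay opposite Fam151a and had 1383. Per kb of exon, Gins2 ranked 7 among the members, Acot11 12 and Map3k12 27.

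Ap3m1, a subunit of the adaptor complex AP-3, lay opposite the adhesion gene Vcl with 1316 counts, and Pigb, an enzyme of GPI anchor synthesis, opposite Ccpg1 with 1205. Phykpl, an enzyme of hydroxylysine breakdown, lay opposite the RNA-binding protein gene Hnrnpab with 1185. Grtp1 lay opposite the lysosomal membrane gene Lamp1 with 1004, and Slc6a20b, a transporter, opposite the phosphoinositide phosphatase gene Sacm1l with 970.5. The partners of these members were far lower, from 1.67 counts for Sacm1l to 53 for Vcl.

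In 15 pairs both genes were members. In the pair of Pdha1, a subunit of pyruvate dehydrogenase, and the kinase gene Map3k15, Pdha1 was listed at 370, 422 and 398 counts in WT and 384, 339 and 336 in flox/flox libraries. Map3k15 was listed at 344, 385 and 356 counts in WT and 386, 299 and 250 in flox/flox libraries. The genes of this pair lay close together in most libraries, with the widest gap in KO2938, and the raw counts of the genotypes overlapped for both. In CPM those of Pdha1 did not, at 508, 548 and 538 in WT and 568, 597 and 587 in flox/flox libraries, with a log2 fold change of 0.14 (SE 0.14, edgeR adjusted p = 1.00).

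Stub1, a ubiquitin ligase that works with chaperones, had a mean of 310.5 counts opposite Jmjd8 with 525.5. Further pairs were Echdc1 and Rnf146, Cog5 and Hbp1, Carm1 and Yipf2, Pcif1 and Zfp335, Tubgcp4 and Trp53bp1, Eme2 and Spsb3, Ahsa2 and Usp34, Vps37a and Mtmr7, Tmem243 and Dmtf1, Snapc3 and Psip1, and Dnajc1 and Mllt10. Their means lay between 152.8 counts for Mllt10 and 798.2 for Echdc1. Rgp1 was the partner of both Gba2 and Msmp, and Srsf2 that of both Mettl23 and Mfsd11.

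Sequences within or at the edge of an overlap show what both strands share. Wdr61 and Ulk4 are shown as 2 of the 3 members with the highest counts, Art3, Gm9821 and Gm17334 for the smallest adjusted p-values between litters, and Xrcc3 for its short overlap. Each window of 30 bases of GRCm38 is read 5′ to 3′ on the member's strand, and capitals mark bases that are also exon of the partner. The windows lie at chr9:54716301-54716330 (minus strand) for Wdr61, chr9:120955351-120955380 (minus) for Ulk4, chr5:92346623-92346652 (plus) for Art3, chr2:91945910-91945939 (plus) for Gm9821, chr11:53772824-53772853 (minus) for Gm17334 and chr12:111807833-111807862 (minus) for Xrcc3.
Wdr61, opposite Dnaja4: aagcaaagccatttgTCTCATACCAGTTCA
Ulk4, opposite Ctnnb1: CATCGGAACCCAGAAGCTGCACTAGAGTCC
Art3, opposite Cxcl10: tcagtcacatgaccaTTTCATGTCAGTTAT
Gm9821, opposite Dgkz: TCTCCATGCCAGGGGctgttgggcatacag
Gm17334, opposite Irf1: GAAGATCATCTCTTCctgaacagtgtacat
Xrcc3, opposite Klc1: cacatcttcattgaacacGCGGCCGACGTG
The same Xrcc3 window on the strand of Klc1: CACGTCGGCCGCgtgttcaatgaagatgtg
In the Ulk4 window the shared bases are coding sequence of Ctnnb1 and not of Ulk4, in the Xrcc3 window they are coding sequence of Xrcc3 and not of Klc1, and in the Gm9821 and Gm17334 windows they are coding sequence of both genes. In the Wdr61 and Art3 windows they are coding in neither.

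**Figure D2:**
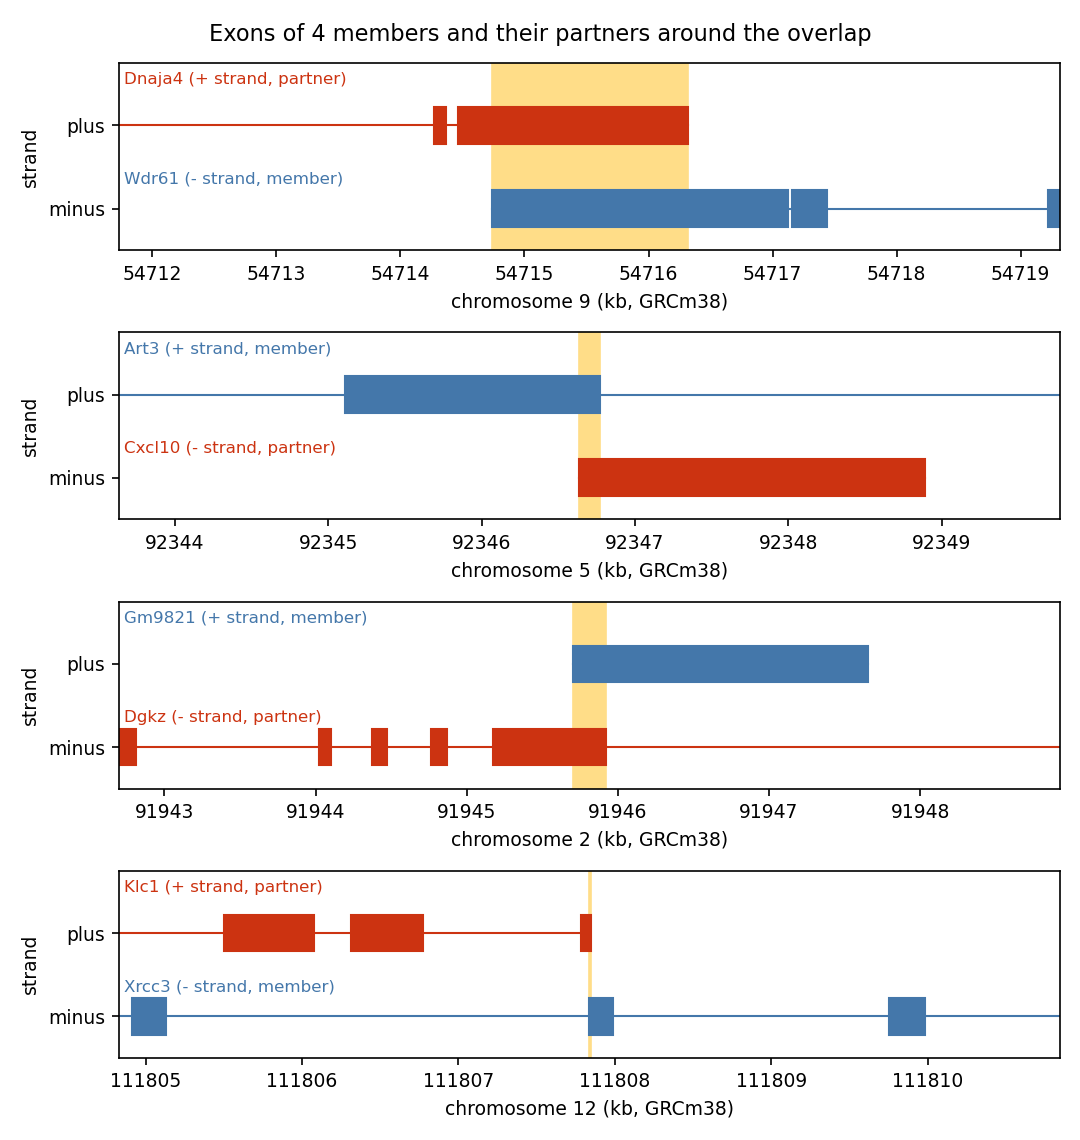
Exons (boxes, all annotated transcripts merged) of 4 members in blue and of their partners in red on the plus and minus strands, against position in kb on GRCm38, with shared exon positions shaded. Wdr61 and Dnaja4 share 1581 bp, Art3 and Cxcl10 133 bp, Gm9821 and Dgkz 222 bp, and Xrcc3 and Klc1 12 bp.

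The study asked whether loss of P07Rik changes the islet transcriptome. Between the flox/flox and WT libraries, 0 of 233 members had an adjusted p-value under 0.05 (Benjamini-Hochberg) in the quasi-likelihood test of edgeR, as did 0% of the 5478 genes tested. The unadjusted p-value was under 0.05 for 2 members, 0.858%, beside 1.84% of all genes tested. DESeq2 and limma-voom also called 0 members, with 1 and 5 members at an unadjusted p-value under 0.05. In edgeR that count was 9 without WT2931, 6 without KO2938 and 4 without WT2777. The median log2 fold change of the members, flox/flox over WT, was 0.019, with quartiles of -0.055 and 0.10, beside a median of -0.011 over all genes. CPM of the genotypes did not overlap for 18 members, 7.73%, of which 13 were higher and 5 lower in flox/flox, beside 7.43% of all genes.

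The members with the smallest p-values were Rnf34 and Cox20. Rnf34, a ubiquitin ligase gene opposite the histone demethylase gene Kdm2b, was at 210, 173 and 200 CPM in WT and 266, 280 and 246 in flox/flox libraries. All flox/flox libraries lay above all WT libraries, with a log2 fold change of 0.44 (standard error, SE, 0.15; edgeR adjusted p = 1.00). Cox20, an assembly factor of cytochrome c oxidase, was at 200, 213 and 166 CPM in WT and 258, 257 and 260 in flox/flox libraries. Its groups did not overlap either, with a log2 fold change of 0.42 (SE 0.15, edgeR adjusted p = 1.00). Rnf34 and Cox20 are also the only 2 members that reached a mean of 150 raw counts in flox/flox alone, with means of 144.7 in WT and 160 in flox/flox for Rnf34 and of 144.3 and 156.3 for Cox20, so neither was chosen independently of its difference. A mean of 150 raw counts was reached in WT alone by 26 members and in both genotypes by 205.

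The third by p-value among members higher in flox/flox libraries was Slc24a5, an ion exchanger opposite Myef2, with a log2 fold change of 0.32 (SE 0.15, edgeR adjusted p = 1.00). On the lower side came Fancc, a DNA repair gene, Syn3, which encodes a synapsin, and Zmat5, with log2 fold changes of -0.26, -0.38 and -0.24 and none called by edgeR. With litter as a replicate block, edgeR again called 0 members, beside 0.0548% of all genes, and the smallest adjusted p-value of a member was 0.509. The block brought 17 members, 7.30%, under an unadjusted p-value of 0.05, of which 14 were higher in flox/flox, beside 5.4% of all genes.

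More members were called between litters than between genotypes. With genotype in the model, 36 members, 15.5%, had an adjusted p-value under 0.05 between litter 2 and litter 1 in edgeR. This stood beside 11.3% of the 5478 genes tested and 23% of the 382 other tested genes that reach a mean of 150 counts. In litter 2, 14 members (6.01%) were higher, beside 6.08% of all genes, and 22 (9.44%) were lower, beside 5.24%. The median log2 fold change of all members was -0.048, beside -0.0092 over all genes. CPM of the litters did not overlap for 87 members, 37.3%, beside 32.9% of all genes. Litter 2 holds 2 libraries, and a difference between the litters cannot be told apart from any other difference between these 2 mice and the other 4. DESeq2 called 22 members, 6 higher and 16 lower. Without WT2931 edgeR called 12 members, 3 higher and 9 lower; the higher calls also numbered 7 without WT2772 and 9 without WT2777. Scaling by library size alone, under which the all-gene median shifted to -0.19 on the log2 scale, left 1 higher and 7 lower. The totals used in this scaling hold AY036118, at 41.0% of KO2938. Its part in the lost calls was not tested. All 36 kept their direction in each of the 14 alternatives tried. The rule on counts and this contrast share libraries: 13 of the 36 had a mean of 150 raw counts or more in the litter where they were higher and under 150 in the other, and so were not chosen independently of the difference. Both litters reached 150 counts for 204 members, of which 23 were called. The members' shares thus rest in part on this rule and are not read as above or below those of all genes.

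The 4 litter 1 libraries were not equally alike. The chi-square ratio to its degrees of freedom was 1.81 for WT2772 and KO2775 and 1.88 for WT2777 and KO2776, each labelled with the same replicate number, beside 3.86 to 5.24 for the other combinations in litter 1. For WT2931 and KO2938 of litter 2, whose replicate numbers differ, it was 31.3. KO2938 stood apart, at 16.7 to 31.8 against the litter 1 libraries, while WT2931 was at 5.65 to 9.06 against them. By this measure WT2931 was thus closer to litter 1 than to KO2938. The litter calls thus rest on 2 pairs of mice in litter 1 against the 2 mice of litter 2. Those 2 mice were taken as 1 more pair by litter, not by replicate number or likeness in the chi-square ratio. The p-values from a fit that takes the 4 litter 1 libraries as independent can be too small. Of the alternatives chosen after seeing the data, neither removes this limit. With the counts of each pair summed edgeR called 38 members, 35 of the 36 among them, but 1 residual degree of freedom was left and the spread of each gene came from the trend over all genes. With the pair as a random effect limma-voom called 54, at an estimated correlation within pairs of -0.22.

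Sums of some endocrine and stress gene lists did not overlap between the litters. In CPM, in the order of libraries WT2772, WT2777, KO2775 and KO2776 of litter 1 and then WT2931 and KO2938 of litter 2, the beta cell genes were at 487, 609, 528 and 516 and at 442 and 393, the alpha cell genes at 82.3, 173, 77.0 and 122 and at 64.9 and 54.2, and the endocrine granule genes at 896, 1110, 947 and 1011 and at 792 and 685. The immediate early genes were at 189, 186, 197 and 187 and at 124 and 121, and those of the unfolded protein response at 397, 566, 434 and 451 and at 301 and 351. Both litter 2 libraries were the lowest in these 5 lists, and the litters overlapped in CPM for the other lists given below. Of all single genes tested, 32.9% did not overlap between the litters. Single genes of these lists, such as those of the unfolded protein response, did not all move alike. In raw counts and the same order of libraries, Hspa5 was at 108, 204, 112 and 106 and at 69 and 72. Ddit3 went the other way, at 43, 50, 52 and 37 and at 72 and 53. Of the endocrine granule genes, Scg2 was at 170, 257, 156 and 154 and at 102 and 78. Chga was at 199, 196, 214 and 187 and at 210 and 128. Of the beta cell genes, Nkx6-1 was at 20, 23, 19 and 24 and at 10 and 15, and Ins1 at 63, 77, 63 and 59 and at 64 and 45. For Chga and Ins1 the raw count of WT2931 thus lay within the range of litter 1.

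The largest difference was that of Art3 (ENSMUSG00000034842), an ADP-ribosyltransferase gene on the plus strand at chr5:92331827-92414628, which spans the chemokine gene Cxcl10 and shares 133 bp of exon with it. Cxcl10 attracts T cells and is induced by interferons; its own counts were not analysed here. Art3 was at 712, 396, 429 and 299 CPM in WT2772, WT2777, KO2775 and KO2776 of litter 1, and at 32.4 and 47.2 CPM in WT2931 and KO2938 of litter 2. Both libraries of litter 2 were far below every library of litter 1, and the litter 1 libraries themselves were spread widely. The log2 fold change was -3.55 (SE 0.24, edgeR adjusted p = 6.03e-17). Art3 is a member through litter 1 alone, with a mean of 321 raw counts there and 25.5 in litter 2.

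Gm17334 (ENSMUSG00000091191), a predicted coding gene inside the span of Irf1, a transcription factor of the interferon response, fell in litter 2 as well. It was at 1147, 850, 1226 and 1066 CPM in litter 1, in the same order of libraries, and at 587 and 411 in litter 2. The litters did not overlap, and the log2 fold change was -1.10 (SE 0.15, edgeR adjusted p = 2.86e-07). Cyren, a regulator of DNA double-strand break repair that shares 2168 bp with Tmem140, was at 781, 544, 746 and 474 CPM in litter 1 and 293 and 357 in litter 2. Its log2 fold change was -0.98 (SE 0.16, edgeR adjusted p = 1.1e-05), again with no overlap between the litters.

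Syn3 spans Timp3, an inhibitor of matrix metalloproteinases, on the opposite strand. It was at 1100, 1252, 928 and 935 CPM in litter 1 and 740 and 509 in litter 2, a log2 fold change of -0.77 (SE 0.13, edgeR adjusted p = 3.08e-05). Both litter 2 libraries were below litter 1, KO2938 more so than WT2931.

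Of the ribosomal protein genes, 3 were partners of members, and each of these 3 members was lower in litter 2. Wdr38, which spans Rpl35, was at 866, 990, 910 and 1155 CPM in litter 1 and 439 and 730 in litter 2, a log2 fold change of -0.78 (SE 0.14, edgeR adjusted p = 7.4e-05). Tlcd1, opposite Rpl23a, was at 834, 928, 902 and 979 CPM in litter 1 and 677 and 671 in litter 2, with a log2 fold change of -0.43 (edgeR adjusted p = 0.0189). Cand2, opposite Rpl32, was at 272, 295, 265 and 322 CPM in litter 1 and 226 and 197 in litter 2, with a log2 fold change of -0.44 (edgeR adjusted p = 0.0339). In all 3 the litters did not overlap. Calls lower in litter 2 made up 9.44% of members and 5.24% of all genes. The ribosomal list itself overlapped between the litters in CPM. Of these 3 partners only Rpl23a was tested, with a log2 fold change of 0.013. Wdr38 was not called without WT2931 (edgeR adjusted p = 0.0791); Tlcd1 was called in 9 and Cand2 in 7 of the 14 alternatives, and Cand2 reached a mean of 150 raw counts in litter 1 alone. Of the respiratory chain genes, Uqcrc2 was the partner of a member, Pdzd9, whose log2 fold change of -0.16 was not called (edgeR adjusted p = 0.478). Among the reference genes, Tbp, the TATA-binding protein, was itself a member, with a log2 fold change of 0.049 between litters (edgeR adjusted p = 0.856) and 0.022 between genotypes.

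Other members lower in litter 2 included Amz2, a metalloproteinase gene opposite the transporter gene Slc16a6, with a log2 fold change of -0.82, and 1810049J17Rik, opposite Golph3 of the Golgi, with -0.69. Shc4, an adaptor of receptor tyrosine kinases that spans Eid1, had -0.58, and Cyfip1, a regulator of actin and translation opposite the magnesium transporter gene Nipa2, had -0.52 (adjusted p between 1.47e-04 and 0.0031 for these 4 members in edgeR). In all of them both litter 2 libraries were the lowest. The call ended without WT2931 for 1810049J17Rik (edgeR adjusted p = 0.208), and without KO2938 for Amz2 (0.0514) and Cyfip1 (0.0562). With library size scaling it ended for Shc4 (edgeR adjusted p = 0.0856) and Cyfip1 (0.152). Amz2 and 1810049J17Rik reached a mean of 150 raw counts in litter 1 alone. Ydjc, opposite Ube2l3, was named after its values were seen because its litters only just separated. It was at 236, 466, 264 and 380 CPM in litter 1 and 223 and 222 in litter 2. WT2777 and KO2776 were its high libraries, and WT2772 lay near litter 2. Ydjc was called in 9 of the 14 alternatives and reached a mean of 150 raw counts in litter 1 alone.

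Gm9821 (ENSMUSG00000095332), a predicted coding gene at chr2:91945703-91947655, led the members that were higher in litter 2. It lies inside the span of Dgkz, a diacylglycerol kinase gene. It was at 172, 165, 182 and 190 CPM in litter 1 and 438 and 435 in litter 2, a log2 fold change of 1.31 (SE 0.13, edgeR adjusted p = 1.24e-10). Libraries of each litter lay close together, whatever their genotype, and the litters were far apart. Gm9821 is a member through litter 2 alone, with a mean of 286.5 raw counts there and 120.8 in litter 1.

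Usp40, a deubiquitinase gene, shares 62 bp with a further diacylglycerol kinase gene, Dgkd. It was at 173, 208, 195 and 141 CPM in litter 1 and 322 and 315 in litter 2, a log2 fold change of 0.82 (SE 0.14, edgeR adjusted p = 3.42e-05). Xrcc3, a homologous recombination gene that shares 12 bp with Klc1, the gene of a kinesin light chain, was at 252, 252, 247 and 206 CPM in litter 1 and 449 and 370 in litter 2, a log2 fold change of 0.77 (SE 0.13, edgeR adjusted p = 2.21e-05). In both members the litter 2 libraries lay above all of litter 1. Usp40 is a member through litter 2 alone, with a mean of 209 raw counts there and 124.5 in litter 1. With library size scaling, whose totals hold AY036118 at 41.0% of KO2938, neither Usp40 (edgeR adjusted p = 0.145) nor Xrcc3 (0.197) was called.

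Tsc2, the gene of tuberin, which restrains the growth kinase complex mTORC1, lies tail to tail with the polycystic kidney disease gene Pkd1. It was at 241, 225, 219 and 250 CPM in litter 1 and 439 and 309 in litter 2, a log2 fold change of 0.68 (SE 0.13, edgeR adjusted p = 3.0e-04). Sphk2, a sphingosine kinase gene, shares 539 bp with Dbp, a transcription factor of the circadian clock's output. It was at 716, 645, 1007 and 738 CPM in litter 1 and 1207 and 1146 in litter 2, a log2 fold change of 0.62 (SE 0.13, edgeR adjusted p = 7.48e-04). KO2775 came closest to litter 2 for Sphk2, and for Tsc2 WT2931 stood above KO2938.

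Zhx3, opposite the phospholipase gene Plcg1, had a log2 fold change of 0.58, Fastk, opposite the anion exchanger gene Slc4a2, 0.50, and Spsb3, opposite the nuclease subunit gene Eme2, 0.45. Slc26a1, a sulfate transporter gene inside the span of Idua, had 0.41, and Pcif1, an mRNA cap methyltransferase gene, 0.38. For these 5 members the adjusted p-values from edgeR lay between 0.00154 and 0.0382. In all 5 both litter 2 libraries were the highest. Without WT2931 none of these 5, nor Tsc2 and Sphk2, was called, with adjusted p-values between 0.148 and 0.652 in edgeR. Fastk was also not called without WT2777 (0.0766), Spsb3 without WT2777 (0.0776) or WT2772 (0.0547), Pcif1 without WT2772 (0.0857), WT2777 (0.105) or KO2775 (0.0931), and Slc26a1 without any 1 of the 6 libraries. With library size scaling none of these 7 was called, with adjusted p-values between 0.294 and 0.742 in edgeR. The totals of that scaling hold AY036118, at 41.0% of KO2938. DESeq2 did not call Fastk (adjusted p = 0.153), Spsb3 (0.111), Pcif1 (0.117) or Slc26a1 (0.226), and without the low-count filter edgeR did not call Pcif1 (0.0648) or Slc26a1 (0.0667). Of the 14 alternatives Fastk was thus called in 10, Spsb3 in 9, Pcif1 in 7 and Slc26a1 in 5. Fastk reached a mean of 150 raw counts in litter 2 alone.

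**Figure D3:**
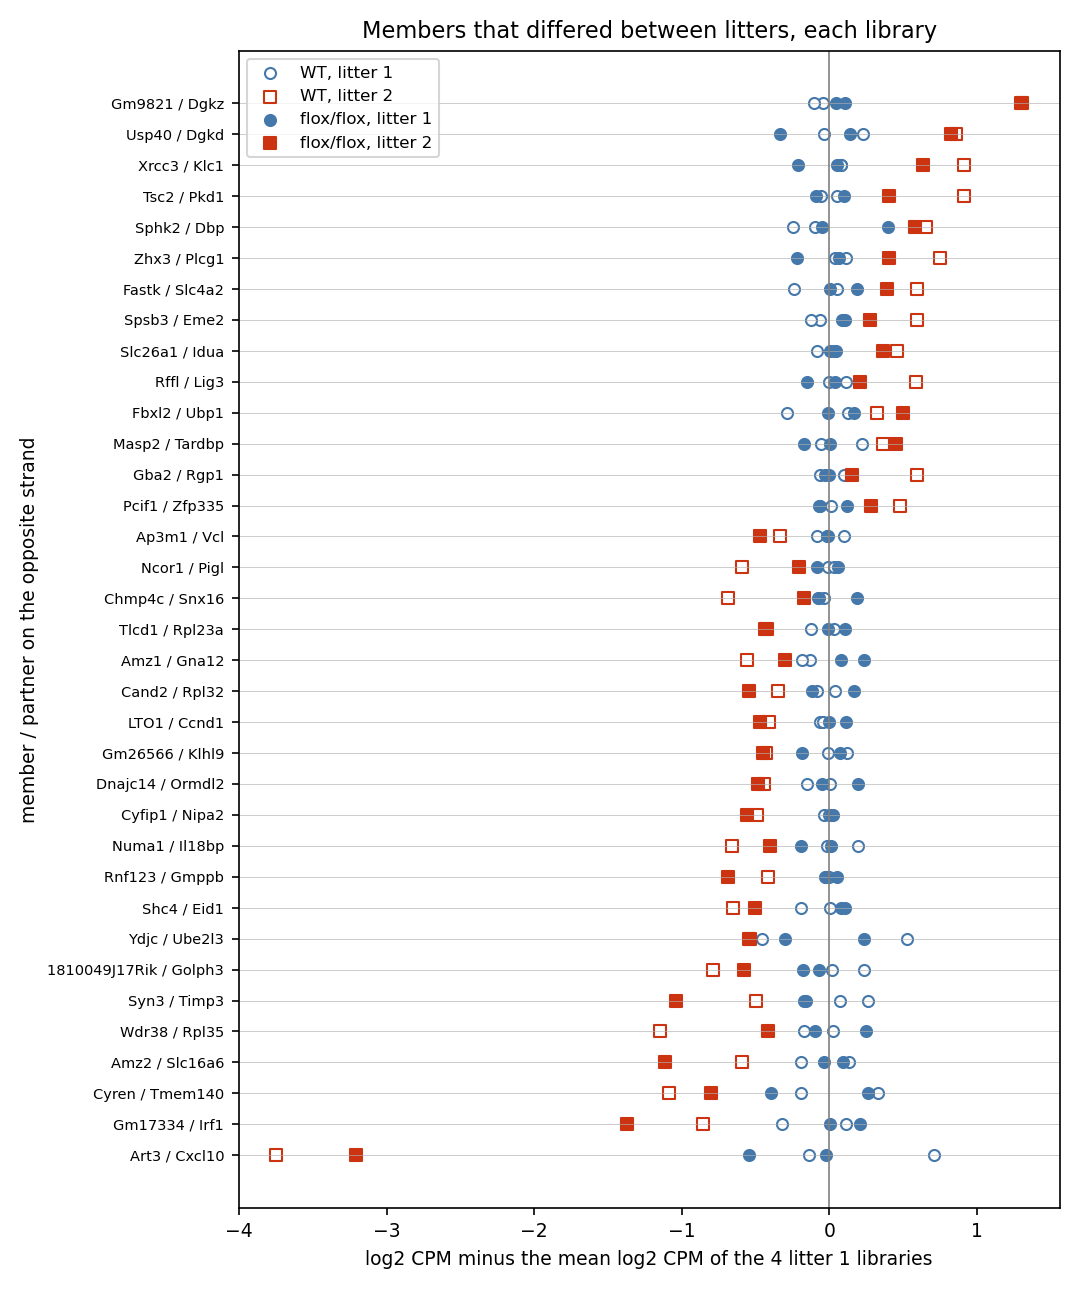
Each line is 1 of the 36 members called between litters, 1 of which is not drawn, with its partner; points give log2 CPM in each library minus the mean log2 CPM of the 4 litter 1 libraries, with circles for litter 1, squares for litter 2, open symbols for WT and filled ones for flox/flox. Both squares lie on the same side of all 4 circles in every line, and Art3 lies farthest out, with a log2 fold change of -3.55.

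Of the 36 members called between litters, 24 were tail to tail with their partner, 12.4% of the 193 in that arrangement. A further 5 were head to head, 26.3% of 19, 4 spanned their partner, 44.4% of 9, and 3 lay inside it, 25% of 12. The partner itself was tested for 23 of the 36 and called for 2, 8.70% beside 11.3% of all genes tested. Plcg1, opposite Zhx3, was higher in litter 2, as Zhx3 was, with a log2 fold change of 0.48 (edgeR adjusted p = 0.0421). Il18bp, which encodes a binding protein of interleukin 18, was listed at 84, 85 and 118 counts in WT and 72, 78 and 117 in flox/flox libraries and was higher in litter 2, while Numa1 opposite was lower, with log2 fold changes of 0.63 and -0.54 (adjusted p = 0.00517 and 0.00893 from edgeR). Numa1 was named after its values were seen, was called in 11 of the 14 alternatives and reached a mean of 150 raw counts in litter 1 alone. Of the 23 tested partners, 12 had a log2 fold change of the same sign as their member.

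Across the 6 libraries, the coefficient of variation of CPM had a median of 10.7% over the members and of 12.3% over the 382 other tested genes that reach a mean of 150 counts. It was lowest for 1110051M20Rik, at 3.51%, and highest for Art3, at 80.3%. For the interaction of genotype and litter, litter 2 holds 1 library per genotype and gives no replicate spread, so no call is read from it. Among the members this term was highest for Psip1, at 1.16 on the log2 scale.

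Marker lists for the cell types of the islet and its surroundings were read in raw counts. The 10 beta cell genes were all in the table and summed to 355, 469 and 327 counts in WT and 357, 293 and 225 in flox/flox libraries, with Ins2 the most abundant. For alpha cells 3 of 5 genes were analysed, led by Gcg, with sums of 60, 133 and 48 in WT and 52, 69 and 31 in flox/flox libraries. For delta and PP cells 3 of 4, led by Ppy, summed to 34, 37 and 21 in WT and 16, 32 and 12 in flox/flox libraries.

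The 11 endocrine granule genes, led by Chga, summed to 653, 855 and 586 counts in WT and 640, 574 and 392 in flox/flox libraries. For acinar cells 9 of 20 genes, led by Cel, summed to 67, 90 and 77 in WT and 40, 38 and 47 in flox/flox libraries. Endothelial genes, 3 of 5 and led by Plvap, summed to 10, 17 and 12 counts in WT and 16, 4 and 5 in flox/flox libraries. Of the stromal genes, Pdgfrb was the 1 of 6 analysed, at 3, 1 and 1 and at 1, 2 and 1 counts, and of the immune genes Cd68 the 1 of 5, at 12, 5 and 8 and at 3, 1 and 2 counts. Defining markers such as Prss1, Cdh5, Col1a1 and Ptprc were not analysed here, so these sums leave out main markers of their cells.

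Immediate early genes, 7 of 8 analysed and led by Junb, summed to 138, 143 and 92 counts in WT and 133, 106 and 69 in flox/flox libraries. The 9 genes of the unfolded protein response, led by Hspa5, summed to 289, 436 and 223 in WT and 293, 256 and 201 in flox/flox libraries. The 8 reference genes, led by Tbp, summed to 421, 386 and 385 and to 330, 313 and 295. The ribosomal protein list was drawn up by symbol and also took in Rps6kl1 and Rps19bp1, which do not encode ribosomal proteins; without them 66 of 79 genes were analysed and summed to 544, 644 and 532 in WT and 531, 438 and 431 in flox/flox libraries. The respiratory chain list, drawn up in the same way, took in assembly factors of complex I and subunits of ATP synthase; without the assembly factors with symbols in Ndufaf 48 of 81 genes summed to 608, 670 and 666 and to 503, 441 and 488. Raw sums of the acinar, immune, reference, ribosomal and respiratory lists were lower in all flox/flox than in all WT libraries. In CPM this held for the acinar list, at 91.9, 117 and 104 in WT and 59.2, 66.9 and 82.1 in flox/flox libraries, and for Cd68, while the genotypes overlapped for the other 3. Of all single genes tested, 7.43% did not overlap between the genotypes in CPM. The acinar genes did not all move alike. In raw counts Cel was at 26, 23 and 28 in WT and 14, 17 and 18 in flox/flox libraries, and Prss2 at 1, 3 and 0 and at 2, 3 and 2. The part of cell composition, of immediate early and stress genes and of the AY036118 share in the litter differences of the members was not tested.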

How the data were processed

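The authors mapped reads to mm10 with HISAT2 2.1.0 after removal of ribosomal reads, counted them per Ensembl gene with HTSeq at a minimum alignment quality of 1 and otherwise default settings, and deposited the raw counts, which are used here. A deposited table of the authors' own DESeq2 comparison, with means, fold changes, standard errors and p-values, was not used. Of 15286 identifiers, 15258 matched GENCODE vM21, a later annotation than the authors'. Exon overlaps were computed between merged exons on opposite strands; printed sequences come from GENCODE's transcripts.

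Tests used edgeR 4.0.16 (quasi-likelihood F test, R 4.3.3) with TMM normalization, the default filter at a minimum count of 10 and Benjamini-Hochberg adjustment over the 5478 genes tested, after a check on simulated data. Standard errors are those implied by the F statistic. Genotype was fitted alone, litter with genotype, and their interaction with both. Alternatives used DESeq2 1.42.0, limma 3.58.1 (voom), other normalizations and filters, a block of litter or of 3 pairs, and each library left out. Litter, given in the labels, pairs WT and flox/flox libraries: deviations from genotype means correlated at 0.14 to 0.27 within litter 1 and 0.46 within litter 2, and at -0.35 to -0.25 between litters. Deviations cancel out within each genotype, so positive values within litters bring negative ones between litters. The negative values are thus not a separate result. No pair of libraries was alike enough to be 1 library (smallest chi-square ratio to its degrees of freedom 1.81).

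Members, lists and tests were chosen with earlier results of these data known. Named genes are the 12 members of highest mean, pairs with both genes members, members called (at most 10 per direction), the 3 smallest p-values per direction, genes next to the threshold, the longest and shortest overlap, members or partners in the marker lists, partners of all these, and Ins1, Ins2, Gcg, Actb, Gapdh and Hprt. A few of these, and a marker list, are not reported here.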

Additional observations from a re-analysis of the deposited data

Results flagged for a closer look

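Psip1, a chromatin-binding protein gene opposite Snapc3, had the highest interaction of genotype and litter among the members. Psip1 was at 316 and 349 CPM in WT and 265 and 317 CPM in flox/flox libraries of litter 1, and at 180 CPM in WT2931 and 350 CPM in KO2938 of litter 2. The WT library of litter 2 was the low one, and litter 2 holds 1 library per genotype. The interaction was 1.16 on the log2 scale, and ranged from 1.03 to 1.28 over the alternatives. Litter 2 gave no replicate spread of its own, so no p-value is given and no difference between the litters is concluded.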

How the results depend on the processing

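Of the genotype results, 0 members were called in edgeR or in any alternative. Over all genes 2 were called with library size scaling alone, 3 with litter as a replicate block and 3 with the 3 pairs as a replicate block, and 0 to 1 when 1 library was left out. Members at an unadjusted p-value under 0.05 numbered 2 in edgeR, 1 with library size scaling, 4 without the low-count filter, 1 in DESeq2, 5 in limma-voom, 17 with either replicate block and 2 to 9 with 1 library left out. With library size scaling the all-gene median went from -0.011 to -0.23 on the log2 scale.

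Between litters, 620 genes were called in edgeR, 265 with library size scaling, 186 in DESeq2 and 233 to 540 with 1 library left out. Of the members 36 were called, against 8 with library size scaling (1 higher, 7 lower), 21 without the filter (8 higher, 13 lower), 22 in DESeq2 (6 higher) and 12 to 29 with 1 library left out (3 to 14 higher, 9 to 19 lower). Members called numbered 43 with at least 10 counts in every library, 36 in limma-voom, 36 after removal of the 10 most abundant genes, 35 with RLE and 34 without a genotype term. Of the alternatives chosen after seeing the data, summed pairs of mice gave 681 genes and 38 members, and the pair as a random effect 952 genes and 54 members (20 higher, 34 lower). The interaction rests on 1 library per genotype in litter 2, so its counts of calls are not given. Without a litter 2 library it could not be fitted. The cause of the shifts in the counts of calls was not tested.

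A threshold of 100 counts gave 376 members with 16.1% of all counts, and one of 300 gave 94 with 9.63%. With the member's own coding sequence overlapped there were 97, with 6.28%.

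The 3 mice per genotype, 1 of them in litter 2, and the 611181 to 800255 counts per library limit all of these comparisons; 3 against 3 without a call does not show that the genotypes are alike. Exon overlaps rest on a later annotation than the one used for counting, and the strand of the counted RNA was not determined.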
